A study of Mus musculus with 6 samples.

Results

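The alveolar type 1 epithelial genes examined here are 9 genes taken by name, by a rule that holds no measured value: Ager, Aqp5, Pdpn, Cav1, Cav2, Hopx, Clic5, Rtkn2 and Emp2. Of these, 8 had a probe matched by accession, on 11 probes, among 16358 gene symbols on 41174 probes; Rtkn2 is named only. All 8 passed the filter on dim probes and were among the 12968 genes tested. The 11 probes were well above background and unsaturated on every array, so no member entered through the group in which it was high. The members, and the gene lists set beside them below, were nevertheless chosen with earlier results of these data known.

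Total RNA of the lung was hybridised to 6 single-colour Agilent arrays, 2 for each of 3 genotypes on the C57BL/6 background. The WT group carries no transgene. The hCD2-T-bet tg/wt group carries the T-bet transgene on 1 allele and the hCD2-T-bet tg/tg group on both; hCD2 refers to human CD2 control sequences, which drive expression in T cells. T-bet is the transcription factor encoded by Tbx21, and the study relates its excess in T cells to pulmonary alveolar proteinosis, a disorder in which surfactant builds up in the alveoli. Age, sex and treatment are not given in the sources used here. Whether the 2 arrays of a group stand for separate animals is not stated in the labels; the p-values rest on array-to-array spread alone, which may be technical.

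Alveolar type 1 cells are very thin, flat epithelial cells that cover most of the gas-exchange surface and lie against the capillaries. In the adult lung they can arise from alveolar type 2 cells, the makers of surfactant, and a transitional epithelial state lies between them during repair. Their RNA products include water channels, membrane and caveola proteins. In a bulk lung sample, fewer cells of a type and less RNA per cell cannot be told apart, and several of these genes are also used by endothelium, mesothelium, lymphatic vessels or muscle.

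Arrays of a group correlated at 0.996 to 0.997 over the genes tested. The 75th percentile of the processed intensity, to which every level below is scaled on the log2 scale, lay between 794 and 1204 units; the share of probes well above background was 62.0% to 66.8%. The log2 level of Tbx21 was -0.70 and -0.71 on the WT arrays, 1.30 and 1.34 with the transgene on 1 allele (tg/wt) and 3.25 and 3.26 on both (tg/tg), in the order of the labels. The WT and tg/tg arrays shared slide 1 and scan 1, and both tg/wt arrays were on slide 2 and scan 2. In every comparison with tg/wt, slide and genotype therefore cannot be told apart.

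In tg/tg lungs 7 of the 8 measured genes were lower than in WT and Pdpn was higher. The falls ran from 2.98-fold for Hopx to 1.11-fold for Aqp5, and Pdpn rose 2.29-fold. In limma's moderated test, with Benjamini-Hochberg adjustment over all genes and a threshold of 0.05, 74.7% of all genes tested were called in this comparison, 40.8% lower and 33.8% higher. The groups did not overlap for 8 of 8 members, against 87.9% of all genes. The median log2 difference was -0.71 over the members and -0.05 over all genes. A call was thus common among all genes in this comparison. In tg/wt lungs only Aqp5 was called, as lower, where 27.9% of all genes were called, 14.6% lower and 13.4% higher, and the members' median was -0.06.

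**Figure D1:**
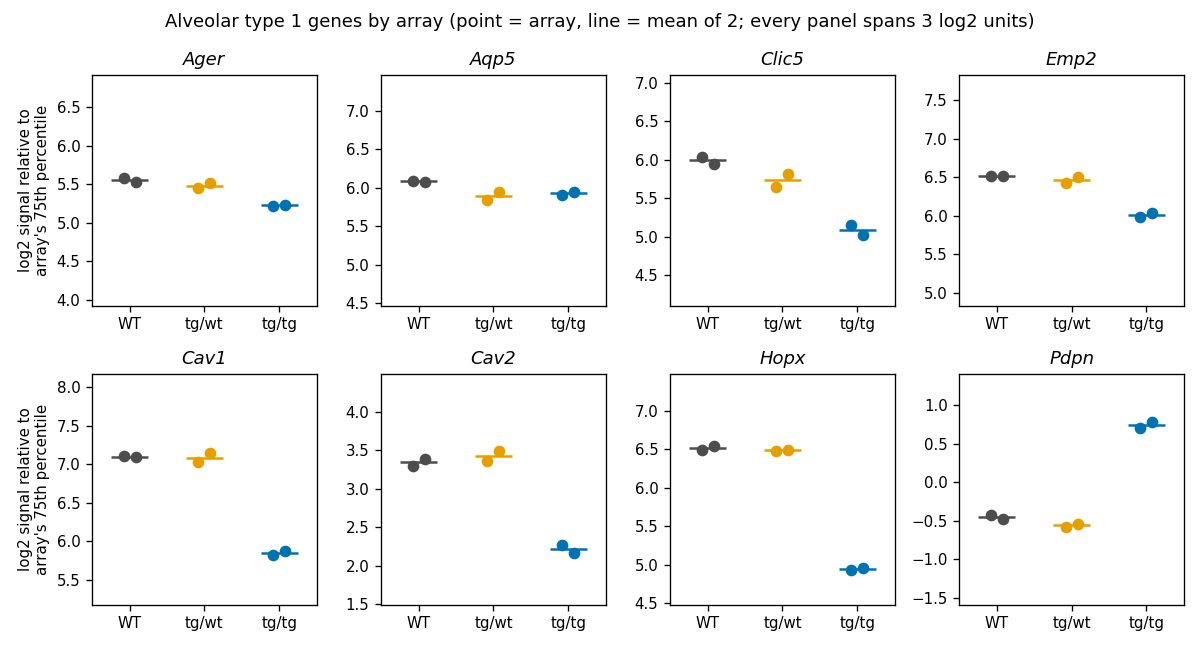
Log2 level of each of the 8 measured genes on each of the 6 arrays, relative to that array's 75th percentile; each point is 1 array. For Hopx, Cav1, Cav2, Clic5, Emp2 and Ager the tg/tg points lie below both other groups. For Pdpn they lie above them, and for Aqp5 the tg/wt and tg/tg points overlap.

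Among the genes of the cell surface, Ager encodes the receptor RAGE, which in the lung is made mainly by type 1 cells. Its log2 level was 5.59 and 5.53 on the WT arrays, 5.46 and 5.51 on the tg/wt arrays and 5.22 and 5.23 on the tg/tg arrays. The order was WT, tg/wt, tg/tg, but WT and tg/wt lay only 0.02 apart at their nearest arrays, less than the 0.06 between the WT arrays. Ager fell in tg/tg against WT by 0.33 on the log2 scale (SE 0.0398, adjusted p = 0.00120, limma), a 1.26-fold change. Of all genes, 32.6% had a difference as low or lower.

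Aqp5 encodes the water channel of the apical membrane of type 1 cells, which submucosal gland cells also make. Its level was 6.09 and 6.07 on the WT arrays, 5.84 and 5.94 on the tg/wt arrays and 5.91 and 5.95 on the tg/tg arrays. Both transgenic groups lay below WT and overlapped each other. Against WT the difference was -0.15 in tg/tg (SE 0.0462, limma adjusted p = 0.0335) and -0.19 in tg/wt (SE 0.0462, limma adjusted p = 0.0397). These calls depend on the arrays and settings used: leaving out any 1 of the 4 arrays of the tg/tg comparison ended its call, and leaving out any of the 6 ended that in tg/wt. Over 21 alternatives the tg/tg difference ran from -0.24 to 0.12, with adjusted p from 0.00263 to 0.620. Over 20 alternatives the tg/wt difference ran from -0.24 to 0.16, with adjusted p from 0.0127 to 0.543.

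Pdpn encodes podoplanin, a mucin-like membrane glycoprotein of type 1 cells that is also made by lymphatic endothelium, mesothelium and some stromal and macrophage populations. Its level was -0.42 and -0.48 on the WT arrays, -0.57 and -0.54 on the tg/wt arrays and 0.71 and 0.78 on the tg/tg arrays. The tg/tg arrays stood above all others by 1.13 log2 units at the nearest, while the widest gap within a group was 0.07. Pdpn rose by 1.20 in tg/tg against WT (SE 0.0447, limma adjusted p = 1.79e-05). Its other probe gave 1.17 (SE 0.0403, adjusted p = 2.89e-05 over all probes). In tg/wt the difference was -0.11 (95% interval -0.22 to 0.01, limma adjusted p = 0.143).

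Cav1 and Cav2 encode caveolins 1 and 2, which build the coat of caveolae in type 1 cells and, in the lung, also in endothelium. Cav1 was 7.11 and 7.09 on the WT arrays, 7.03 and 7.14 on the tg/wt arrays and 5.82 and 5.88 on the tg/tg arrays. Cav2 was 3.30 and 3.39 on the WT arrays, 3.36 and 3.49 on the tg/wt arrays and 2.26 and 2.16 on the tg/tg arrays. For both genes WT and tg/wt overlapped and tg/tg lay more than 1 log2 unit below. Cav1 fell by 1.25 in tg/tg against WT (SE 0.0507, limma adjusted p = 2.34e-05), a 2.38-fold change. The fall of Cav2 was 1.13 (SE 0.0683, limma adjusted p = 9.12e-05), a 2.19-fold change.

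The 2 caveolins had the closest profiles of any pair of members, with a root mean square difference of 0.0747 log2 units over the 6 arrays. Their within-array difference moved by 0.05 at most in WT, by -0.09 and -0.10 in tg/wt, and by -0.19 and -0.04 in tg/tg, from the WT mean. Cav2 was printed in 10 spots on each array, which gives its spread between spots within an array, not that between arrays. After spots with an outlier mark were left out, 8 to 10 spots remained per array, with an SD of 0.0237 to 0.0678. The highest spot of either tg/tg array was at 2.30 and the lowest of either WT array at 3.19; a marked spot of WT 1, not used, was at 2.38.

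**Figure D2:**
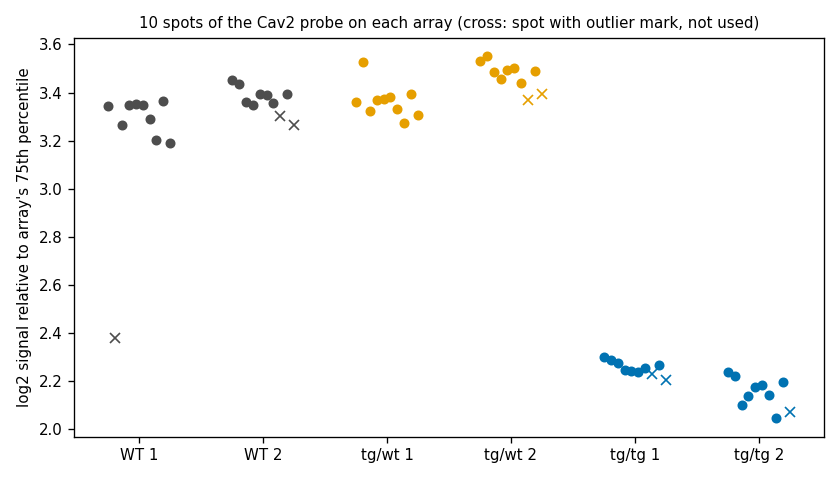
Log2 level of each of the 10 replicate spots of the Cav2 probe on each array; spots that carry an outlier mark are drawn apart and were left out of the means. The tg/tg spots that were used lie at or below 2.30 and the WT spots at or above 3.19.

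The second Cav1 probe, dimmer than the first, was also lower in tg/tg, by 1.03 (SE 0.113, limma adjusted p = 0.00116 over all probes). In RefSeq the 2 caveolin genes are neighbours on chromosome 6, on the same strand, with 0 genes starting between them. The 250 bases before the annotated starts are printed here for the caveolins, which moved together, and for Hopx and Pdpn, the members with the largest fall and the only rise. They come from RefSeq on GRCm38.p6, 5′ to 3′ on the gene's strand, with capitals marking matches to the motifs searched. All 8 measured members had windows in that table, 10 in all.
Cav2, chr6:17280935-17281184, plus strand: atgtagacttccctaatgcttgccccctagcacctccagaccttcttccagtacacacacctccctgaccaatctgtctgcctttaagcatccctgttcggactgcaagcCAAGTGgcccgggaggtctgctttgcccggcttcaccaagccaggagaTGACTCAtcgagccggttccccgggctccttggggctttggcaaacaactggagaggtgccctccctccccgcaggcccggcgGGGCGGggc
Cav1, chr6:17306085-17306334, plus strand: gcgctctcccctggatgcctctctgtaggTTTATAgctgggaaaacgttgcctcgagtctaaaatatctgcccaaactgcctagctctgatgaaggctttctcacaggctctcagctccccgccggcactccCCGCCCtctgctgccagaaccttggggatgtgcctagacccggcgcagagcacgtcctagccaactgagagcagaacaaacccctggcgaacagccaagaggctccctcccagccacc
Hopx, chr5:77115124-77115373, minus strand: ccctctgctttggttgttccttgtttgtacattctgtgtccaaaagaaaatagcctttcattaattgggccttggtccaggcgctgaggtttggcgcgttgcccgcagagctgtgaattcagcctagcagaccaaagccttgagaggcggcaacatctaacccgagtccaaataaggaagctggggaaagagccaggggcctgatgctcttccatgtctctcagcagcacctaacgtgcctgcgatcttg
Pdpn, chr4:143299565-143299814, minus strand: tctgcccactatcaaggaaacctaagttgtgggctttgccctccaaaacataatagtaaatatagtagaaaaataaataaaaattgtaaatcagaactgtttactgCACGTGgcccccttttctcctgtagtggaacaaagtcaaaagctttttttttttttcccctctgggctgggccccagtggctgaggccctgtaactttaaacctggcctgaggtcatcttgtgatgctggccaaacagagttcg

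The motifs were searched on both strands of each window. The Cav2 window held CAAGTG, the core of an NKX2-1 site (in 11.6% of 32851 RefSeq windows of that length), the AP-1 site TGANTCA (6.75%) and the GC box GGGCGG (32.7%). In the printed Cav1 window there was a GC box and TATAAA on the minus strand (12.4%). The other window of Cav1, which is not printed, held none of the motifs. The window of Pdpn held the E-box CACGTG (6.02%), as did the window of Aqp5 and the other window of Hopx, which are not printed; the printed window of Hopx held none of the motifs. Neither the TEAD core GGAATG (12.6%), the T-box core AGGTGTGA (1.12%), the STAT site TTCNNNGAA (7.02%) nor the interferon-stimulated response element (2.98%) occurred in any member's window. These matches describe letters only, and the Cav2 motifs were not shared with Cav1 apart from the GC box.

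Hopx, a homeodomain-only cofactor without DNA binding that marks type 1 cells, showed the largest change. Its level was 6.49 and 6.54 on the WT arrays, 6.48 and 6.48 on the tg/wt arrays and 4.92 and 4.96 on the tg/tg arrays. The tg/tg arrays lay 1.53 log2 units below the nearest WT array, and tg/wt lay 0.01 below the nearest WT array. Hopx fell by 1.57 in tg/tg against WT (SE 0.0368, limma adjusted p = 4.52e-06), a 2.98-fold change. Of all genes, 6.12% had a difference as low or lower. Relative to Ager on the same array, Hopx moved by -1.26 and -1.23 in tg/tg from the WT mean and by 0.06 and 0.01 in tg/wt, so these members changed unequally.

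Clic5 encodes a chloride intracellular channel family protein that links membranes to the actin cortex through ezrin. Its level was 6.04 and 5.95 on the WT arrays, 5.65 and 5.82 on the tg/wt arrays and 5.15 and 5.03 on the tg/tg arrays. The 3 groups did not overlap, in the order WT, tg/wt, tg/tg. Clic5 fell by 0.90 in tg/tg against WT (SE 0.0795, limma adjusted p = 3.60e-04). In tg/wt the difference was -0.26 (95% interval -0.47 to -0.05, limma adjusted p = 0.0700); 5 of 20 alternatives called it, with adjusted p from 0.0216 to 0.810. The dimmer Clic5 probe differed by only -0.32 in tg/tg (SE 0.0544, limma adjusted p = 0.00509 over all probes), and the gap between the probes was not tested.

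**Figure D3:**
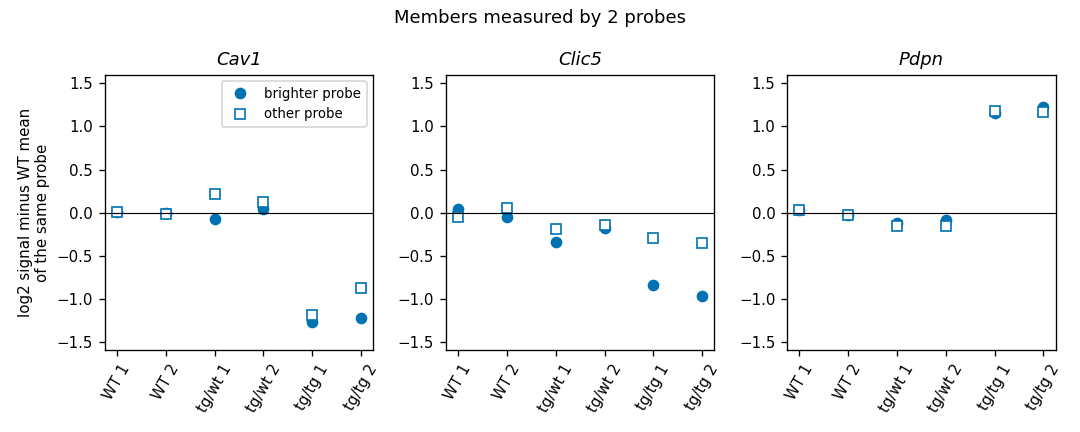
Log2 signal of each of the 2 probes of Cav1, Clic5 and Pdpn on each array, minus that probe's own WT mean; filled circles are the brighter probe and open squares the other. On the tg/tg arrays the brighter Clic5 probe lies below the other (brighter minus other -0.55 and -0.61), while the 2 Pdpn probes stay within -0.02 to 0.07 of each other on every array.

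Emp2 encodes a tetraspan membrane protein abundant in type 1 cells and also present in other epithelia. Its level was 6.52 and 6.52 on the WT arrays, 6.43 and 6.50 on the tg/wt arrays and 5.98 and 6.04 on the tg/tg arrays. WT and tg/wt differed by less than the spread within tg/wt, and tg/tg lay below both. Emp2 fell by 0.51 in tg/tg against WT (SE 0.0435, limma adjusted p = 3.16e-04), a 1.43-fold change. The call on Emp2, and those on Ager and Clic5, ended under 1 of 21 alternatives, a background correction by normexp, with adjusted p of 0.447, 0.874 and 0.0573. That setting left 3 of the 8 members lower. With local backgrounds capped, the same correction left 7 lower, with adjusted p of 2.30e-04 for Emp2, 7.50e-04 for Ager and 2.96e-05 for Clic5. Over all alternatives adjusted p ran from 1.16e-05 to 0.447 for Emp2, 9.74e-05 to 0.874 for Ager and 6.70e-06 to 0.0573 for Clic5.

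Between tg/tg and tg/wt, 6 members were lower and Pdpn was higher, where 74.2% of all genes were called, 40.2% lower and 34% higher, and the groups of 7 members did not overlap, against 87.5% of all genes. This comparison shares the tg/tg arrays with the one above. The differences were -1.54 for Hopx, -1.24 for Cav1, -1.22 for Cav2, -0.64 for Clic5, -0.46 for Emp2, -0.26 for Ager and 1.30 for Pdpn, with limma adjusted p at or below 0.00307. The dimmer Clic5 probe differed by -0.16 and was not called (SE 0.0544, limma adjusted p = 0.0547 over all probes). The second probes of Cav1 and Pdpn differed by -1.20 and 1.32. Aqp5 differed by 0.04 (95% interval -0.08 to 0.16, limma adjusted p = 0.450). Between tg/wt and WT, the 95% intervals were -0.15 to 0.12 for Cav1, -0.10 to 0.26 for Cav2, -0.13 to 0.06 for Hopx and -0.17 to 0.06 for Emp2, none of them called. The arrays of these 2 groups did not overlap for 6 of 8 members, against 72.4% of all genes.

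**Figure D4:**
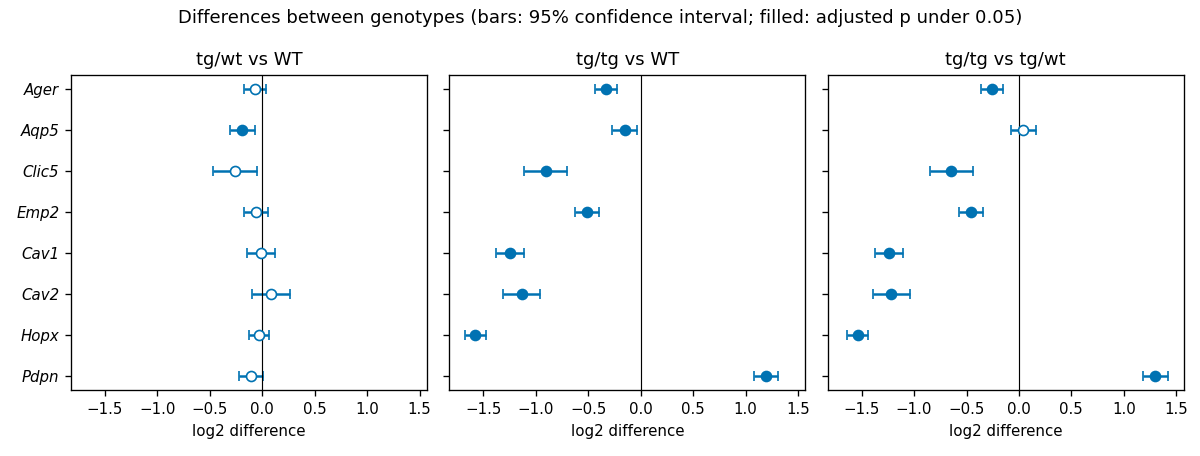
Log2 difference of each measured gene in the 3 comparisons, with 95% intervals from limma. Hopx, Cav1 and Cav2 lie below -1 in both comparisons that involve tg/tg, Pdpn lies above 1 there, and all members lie between -0.26 and 0.08 in tg/wt against WT.

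Of 27 other genes used by type 1 cells, 16 were lower in tg/tg than in WT and 3 were higher, with a median of -0.51. The list counts from here on stand against 40.8% of all genes lower and 33.8% higher in this comparison, with a median of -0.05. Igfbp2, a secreted binding protein of insulin-like growth factors that marks mature type 1 cells, was 5.21 and 5.22 on the WT arrays, 4.48 and 4.55 on the tg/wt arrays and 1.04 and 1.08 on the tg/tg arrays, a 17.8-fold fall. Sec14l3, a lipid-binding protein, fell 4.94-fold. The cytochrome P450 gene Cyp2b10 fell 3.12-fold and the neurotrophin gene Bdnf 2.79-fold. Against the majority, Ndnf rose 2.35-fold, the adhesion molecule Icam1 2.0-fold and Gprc5a 1.15-fold. Genes of this list are used by other lung cells too, and which cells these changes came from was not tested. In tg/wt 11 of the 27 were lower and 1, the basement membrane collagen gene Col4a3, was higher, with a median of -0.13. List counts in tg/wt, here and below, stand against 14.6% of all genes lower and 13.4% higher in that comparison.

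Of 10 transcription factors listed for type 1 cells, 6 were lower in tg/tg than in WT and 1 was higher (median -0.35). This stands against 40.8% and 33.8% of all genes, and the list is not specific to type 1 cells. Klf4 fell 2.40-fold, Foxp2 2.35-fold, Foxa1 2.09-fold and Wwtr1, which encodes the Hippo pathway coactivator TAZ, 1.59-fold. The Notch effector gene Rbpj rose 1.64-fold. Of 10 other caveola genes, 6 were lower and 2 higher (median -0.54). The coat genes Cavin2 and Cavin1 fell 5.24-fold and 2.19-fold, the muscle caveolin Cav3 3.23-fold, and the endothelial kinase gene Bmx at least 2.32-fold, since it was not well above background in tg/tg. Cavin4 rose 1.84-fold and Cavin3 1.16-fold.

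Of 26 partners and relatives of the members, 11 were higher and 9 lower in tg/tg than in WT (median 0.05), which is near the shares over all genes (33.8% higher and 40.8% lower). Cd44, a membrane partner of podoplanin, rose 2.62-fold, and Emp3, a relative of Emp2, rose 3.0-fold. The water channel gene Aqp3 fell 2.72-fold and Clic6 2.40-fold. Clec1b, which encodes the platelet receptor of podoplanin and was singled out after its value was seen, fell 1.72-fold. In tg/wt 9 of the 26 were lower and 0 higher by limma, against 14.6% and 13.4% of all genes.

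Alveolar type 2 genes, the neighbours of type 1 cells in the alveolar wall, gave 5 higher and 3 lower of 13 in tg/tg against WT, with a median of -0.00. Lgi3 fell 1.92-fold, Slc34a2 1.13-fold and Lamp3 1.11-fold, while Cxcl15 rose 1.89-fold, Sftpd 1.88-fold and Napsa 1.48-fold. Of 12 genes of the transitional alveolar state, 10 were higher and 0 lower (limma; median 0.995). The tight junction gene Cldn4 rose 15.1-fold, the cell cycle inhibitor gene Cdkn1a 4.0-fold, Lgals3 3.99-fold and Fn1 2.69-fold. Macrophages and fibroblasts also make Lgals3 and Fn1, and which cells the rises of this list came from was not tested. In tg/wt 7 of the 12 transitional genes were lower and 0 higher (median -0.25), against 14.6% and 13.4% of all genes. Pan-epithelial genes gave 5 higher and 3 lower of 12 (median 0.16), led by Cldn4 again, with Krt8 up 1.41-fold and Krt18 up 1.33-fold, and Krt19 down 1.42-fold, Grhl2 1.32-fold and Cdh1 1.10-fold.

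**Figure D5:**
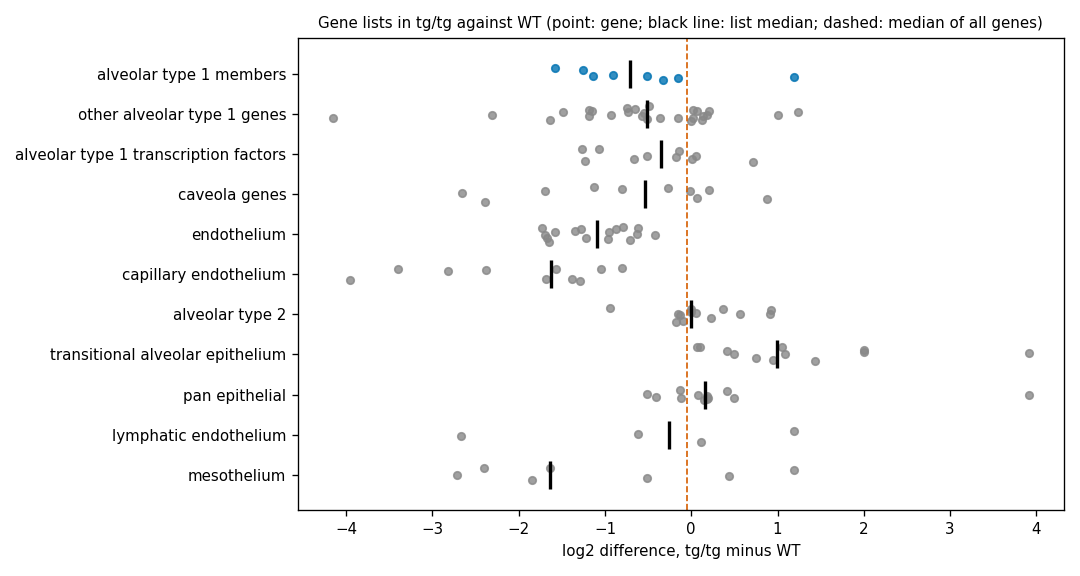
Log2 difference of each tested gene of the lists in tg/tg against WT, 1 point a gene, with the median of each list. The endothelium and capillary endothelium lists lie wholly below 0, the lymphatic list has genes on both sides, and 10 of 12 transitional genes were called higher.

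Markers of cell types that share members with type 1 cells moved as well. All 16 endothelial genes were lower in tg/tg than in WT (median -1.09), led by Tek (3.31-fold), Kdr (3.25-fold), Ramp2 (3.20-fold) and Eng (3.14-fold). Their summed level, in multiples of the 75th percentile, was 560 to 563 in WT, 519 to 534 in tg/wt and 255 to 258 in tg/tg. All 10 capillary genes were lower too (median -1.63), with Fibin 15.5-fold, Ednrb 10.5-fold, Aplnr 7.07-fold and Car4 5.20-fold lower. Their part in the fall of Cav1 and Cav2 was not tested. Heart muscle genes, which also sit beside Hopx because heart muscle expresses it, were lower for 10 of 10 in tg/tg (median -4.04), with Nppa 83.8-fold, Myl7 22.6-fold, Sln 22.3-fold and Myl4 19.6-fold lower. In tg/wt 9 of these 10 were already lower (median -0.99), against 14.6% of all genes, and Hopx differed by -0.04 there. Slide and genotype cannot be told apart in that comparison, and the part of heart muscle in the fall of Hopx was not tested. Adipocyte genes, from cells rich in caveolae, were lower for 7 of 7 in tg/tg (median -4.41, or -3.97 with bounds for 2 genes), with Pck1 at least 23.3-fold, Retn at least 5.91-fold and Cfd 54.4-fold lower; Adipoq was lower too, but was well above background on only 1 of the 2 tg/tg arrays, so no fold is given. In tg/wt 6 of the 7 were lower (median -0.68), against 14.6% of all genes, and Cav1 differed by -0.01, with the same limit. The part of adipocytes in the fall of Cav1 was not tested.

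Beside Pdpn, the other lymphatic genes tested were Lyve1, 6.36-fold lower, Flt4, 1.53-fold lower, and Reln, at 0.11 with limma adjusted p = 0.0829. Prox1 had a probe but was not among the genes tested, and Mmrn1 and Ccl21a had no matched probe. Of 7 mesothelial genes, Pdpn included, 5 were lower (Upk3b 6.55-fold, Lrrn4 5.27-fold, Upk1b 3.58-fold, Wt1 3.11-fold and Krt19 1.42-fold) and Msln rose 1.36-fold. Stromal genes gave 6 higher and 6 lower of 12, with Inmt 22.1-fold and Tcf21 6.84-fold lower, and Ccl19 4.71-fold and Thy1 4.17-fold higher. Macrophage genes were higher for 9 of 10 (median 2.88), with Msr1 60.7-fold, Gpnmb 22.1-fold, C1qb 16.6-fold and C1qa 14.9-fold higher and Siglecf 4.19-fold lower. Their summed level was 20.1 to 20.3 in WT, 23.7 to 24.0 in tg/wt and 159 to 161 in tg/tg. The part of these cells in the rise of Pdpn was not tested.

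Genes of immune cells rose and genes of the airways fell on the same arrays. T cell genes were higher for 9 of 9 in tg/tg against WT (median 3.23), with Cd6 18.0-fold, Icos 17.7-fold, Cd5 11.7-fold and Cd3d 9.5-fold higher. General leukocyte genes were higher for 8 of 8 (median 2.18), led by Itgb2 (7.29-fold), Cd52 (6.06-fold), Cd53 (6.02-fold) and Tyrobp (5.12-fold), with a summed level of 44.7 to 45.0 in WT and 196 to 197 in tg/tg. Airway genes were lower for 8 of 9 (median -1.26), with Bpifa1 18.2-fold, Tppp3 4.60-fold, Cyp2f2 3.95-fold and Scgb3a1 3.53-fold lower and Ltf 1.57-fold higher. The summed level of the 8 type 1 members was 508 to 512 in WT, 468 to 497 in tg/wt and 290 to 294 in tg/tg. Like the other sums, it adds linear levels, so the brightest probes, such as that of Cav1, weigh most and Pdpn hardly counts. The part of a larger share of immune cell RNA in the fall of this sum was not tested.

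By profile over the 6 arrays, the genes nearest to Ager were Ash1l, Dnaaf2, Ost4, Selenok and Laptm4a, with root mean square differences of 0.0120 to 0.0186 log2 units. Those nearest to Pdpn were Qpctl, Tmem140, Tpi1, Sgpl1 and Alox5ap, at 0.0272 to 0.0324. Among the members, Ager lay closest to Emp2 (0.0938), and Hopx and Pdpn lay farthest apart (1.32).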

How the data were processed

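Lung RNA intensities from 6 arrays (2 per genotype) were analysed. The deposited processed intensity is a linear, background-subtracted signal that the authors did not scale between arrays. Per the file headers it was extracted with Agilent Feature Extraction 9.5.3.1, while the submitters' processing notes name 9.1; the version that applies is not settled here. Each value is log2 of the intensity minus the array's 75th percentile over probes, control spots and spots with outlier marks left out. A percentile over spots was computed first and is kept as an alternative. Probes were named by matching accessions to RefSeq (22951 of 41174); the chosen probes of Ager, Aqp5, Cav1, Hopx, Clic5 and Emp2 were read from the scaled-up low-gain scan.

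A probe was kept where 2 or more of the 6 arrays had it well above background, and the probe with the highest mean stood for its gene. A fold is a bound where a group was nowhere well above background: the mean of the brighter group over that of the dimmer one, whose arrays are set to their lowest signal well above background where the probe's own is below it. All arrays entered 1 limma fit (version 3.58.1) of the group means (R 4.3.3, data.table, version 1.17.8; 3 residual and 1.77 prior degrees of freedom), two-sided, adjusted by Benjamini-Hochberg over all genes at 0.05. The fit was tested on simulated data. Figures used Python 3.11.15 and matplotlib 3.10.9. The number of arrays limits the precision.

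All members were named, and from each other list up to 4 called genes with the largest difference in tg/tg against WT plus called genes against the majority; a few further list members are named as examples. The 5 nearest profiles to Ager and Pdpn were named. Members and lists were chosen with earlier results of these data known. The alternatives covered background correction (normexp on the median signal, since a mean-signal column was not used here), normalization, filters, a floor, probe choice, variance trend, groups fitted, the series values, replicate and slide blocks, and leaving out each array.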

Additional observations from a re-analysis of the deposited data

How the results depend on the processing

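For tg/tg against WT, 4 of the 8 members (Hopx, Cav1, Cav2 and Pdpn) kept their direction and call under all 21 alternatives, with Hopx from -1.69 to -1.27, Cav1 from -1.41 to -0.96, Cav2 from -1.19 to -0.84 and Pdpn from 0.97 to 1.23. Among these 21, the slide block could change nothing, since slide 2 held only the tg/wt arrays, and it repeated the main fit. Normexp on the median signal left 3 members lower in tg/tg against WT, 0 in tg/wt against WT and 3 in tg/tg against tg/wt. It turned Aqp5 to 0.12 in tg/tg and 0.16 in tg/wt, against WT, and quantile normalization turned Aqp5 to -0.14 in tg/tg against tg/wt. Local backgrounds reached 21737.5 units on WT 1 against a median of 58; with backgrounds capped, the 2 WT arrays correlated at 0.999, against 0.979 uncapped. With that cap 7, 1 and 6 members were lower in the same order of comparisons, the 1 in tg/wt being Clic5 in place of Aqp5. Uncapped normexp moved the median of all genes to -0.17 in tg/tg against WT. The number of members lower in tg/wt, 1 in the report, was 0 under quantile normalization, no filter, every probe on its own and only the 2 groups compared, 0 to 0 when leaving out each array, and 2 under the stricter filter, the mean of probes and the variance trend. The percentile over spots, tried before the scaling reported here and listed as an alternative after the data were seen, changed no member's call; it shifted the tg/tg to WT differences so little that the members' median became -0.72.

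The genes called were 9685, 3619 and 9621 in tg/tg against WT, tg/wt against WT and tg/tg against tg/wt. Normexp gave 4121, 1 and 3310, normexp with capped backgrounds 9145, 2700 and 9009, and every probe on its own, which tests more features, gave 19088, 5460 and 18853. In tg/wt against WT there were 2408 without a filter and 1397 to 1807 when a WT or tg/wt array was left out: 1397 without WT 1, 1472 without WT 2, 1807 without tg/wt 1 and 1464 without tg/wt 2. With an arm of 1 array, that array is assumed to vary like the other groups. With the replicate number as a block, the members lower were 7, 0 and 6 in the same order of comparisons. Deviations of same-numbered arrays correlated at 0.13 for WT and tg/wt, -0.05 for WT and tg/tg and -0.05 for tg/wt and tg/tg. These values are low, but they cannot tell whether same-numbered arrays share an origin. No group spans the slides, so a slide block could not be told apart from the tg/wt group. It was left out for comparisons with tg/wt, and for tg/tg against WT it repeated the main fit. Other causes of these shifts were not tested.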
